A study of Populus tomentosa with 9 samples.

Results

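The genes described here are poplar membrane pumps of the ABC (ATP-binding cassette) and MATE (multidrug and toxic compound extrusion) kinds. They were chosen by wording: a gene was taken if the description in the authors' deposited tables named an ABC transporter, an ABC-2 type transporter or a multi antimicrobial extrusion protein, which gave 37 of the 41624 genes measured. The authors described only the 2976 genes that they had listed as different between a transgenic line and wild type in at least 1 of 6 comparisons, so the line differences chose these 37 genes and are given below as a description only. The wording placed 9 genes in an ABC-2 type class, 11 in a type 1 transmembrane class, 9 in a class with other ABC wording and 8 in the MATE class.

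ABC transporters use ATP to move substrates across membranes, whereas MATE transporters couple export to the flow of protons or sodium. ABC-2 type membrane domains belong to the ABCG and ABCA subfamilies, and full-size ABCG pumps of the pleiotropic drug resistance (PDR) kind are known in tobacco and Arabidopsis for moving terpenoids and abscisic acid across the plasma membrane. Type 1 membrane domains belong to the ABCB and ABCC subfamilies, which in Arabidopsis include auxin transporters and vacuolar pumps for glutathione conjugates. Arabidopsis MATE proteins load flavonoids into the vacuole and export citrate.

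RNA was sequenced from suspension-cultured Populus tomentosa cells, with 1 library for each of 9 conditions and no replicates. An overexpression line, an antisense line and the wild type were each given 10 mM H2O2 for 3 h, 1 mM ASA for 3 h (the labels give only this abbreviation) or no agent (control), all in the dark and 5 days after subculturing. The labels do not name the gene carried by the constructs, its promoter or the number of independent lines, so its level could not be given as a check, and each genotype was treated as a single cell line. The organism label gives poplar and the source label gives suspension cells, while the extraction text speaks of Arabidopsis stems; the POPTR identifiers are those of poplar genes.

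Levels are in FPKM, which corrects fragment numbers for gene length and library depth. Reads recovered from these deposited values totalled 17102469 to 19629543 per library. On the first principal component, which held 40.1% of the variance, the overexpression libraries under H2O2 (87.4) and under ASA (70.6) stood apart from the other 7 (-34.3 to -6.59). The treated antisense libraries also went their own way: across 23350 genes, which are not independent, the H2O2 minus ASA difference of the antisense line correlated at -0.838 with that of wild type, while those of the overexpression line and wild type correlated at 0.622. The labels of the 2 treated antisense libraries may therefore be wrong, which was not tested. Their treatments are named below as labelled, and every antisense treatment value rests on those labels. For the transporter genes, counts and class medians of the treatment fit are given with and without those 2 libraries. Among marker wordings, the 2 chlorophyll-binding or photosystem genes summed to 6.70 to 20.4 FPKM in the overexpression libraries, 15.2 to 21.8 in the antisense libraries and 36.5 to 47.3 in the wild type libraries, and the part of that in any result was not tested.

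All 37 transporter genes had reads in every library, and all passed the filter for testing (a mean of at least 1 FPKM). Their means over the 9 libraries ran from 9.98 to 101 FPKM with a median of 24.1 FPKM, and single values ran from 0.330 FPKM (11 reads) to 148 FPKM. The highest library of a gene was 2.03 to 68.9 times its lowest, with a median of 4.47 times. In a bulk library, fewer cells using a gene and less RNA per cell cannot be told apart. The map of all members by library shows the overall layout.

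**Figure D1:**
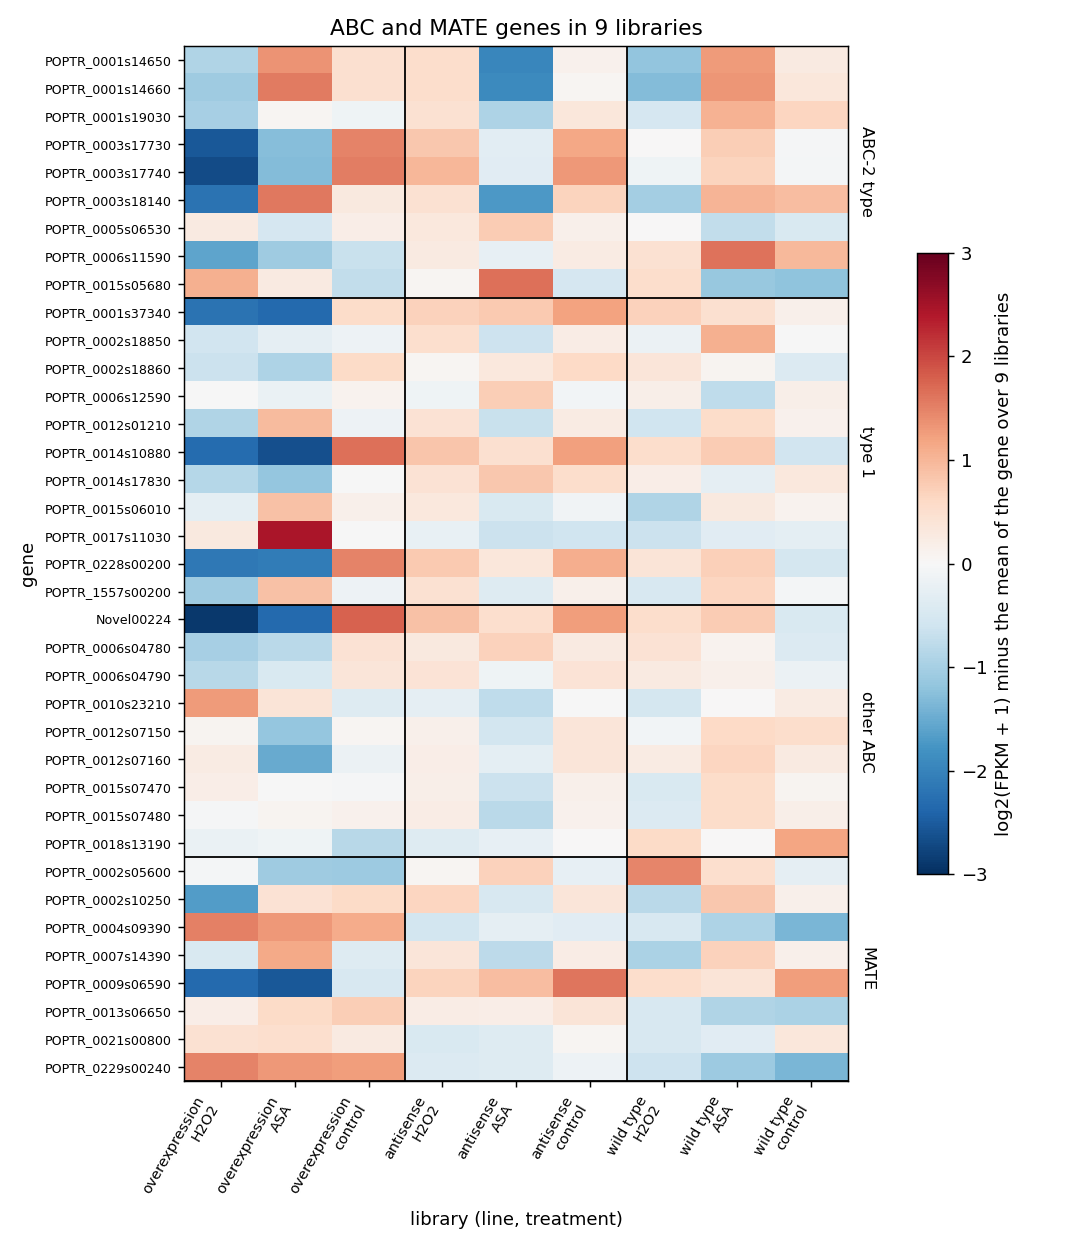
log2(FPKM + 1) of each of the 37 transporter genes, by class, in each of the 9 libraries (1 library per column), relative to the gene's own mean. Low values gather in the overexpression H2O2 and ASA columns for a set of type 1 and ABC-2 type genes, and in the wild type H2O2, overexpression H2O2 and antisense ASA columns for another set.

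The 7 ABC-2 type genes with plant PDR wording were, as a class, low in the overexpression H2O2, wild type H2O2 and labelled antisense ASA libraries. Their summed level was 62.3 FPKM under H2O2, 331 FPKM under ASA and 252 FPKM in the control of the overexpression line. It was 261 FPKM in the library labelled antisense H2O2, 78.7 FPKM in that labelled antisense ASA and 252 FPKM in the antisense control. In wild type it was 116 FPKM under H2O2, 403 FPKM under ASA and 260 FPKM in the control. The 3 summed control levels therefore lay within a narrow band, but single genes could differ between the controls. In the overexpression, antisense and wild type controls, POPTR_0003s17740 had 51.3, 43.4 and 16.2 FPKM and POPTR_0006s11590 had 10.7, 20.9 and 35.3 FPKM. Of the summed treated levels, that of the library labelled antisense H2O2 lay near the band, and the others lay well above or below it. A list of 10 genes with cellulose synthase wording, which marks wall-forming cells, was also lowest in the library labelled antisense ASA (207 FPKM), the wild type H2O2 library (249 FPKM) and the overexpression H2O2 library (324 FPKM), and lay between 395 and 469 FPKM in the other 6; its part in the PDR result was not tested.

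POPTR_0001s14660 was the most abundant of these PDR genes, a class of plasma membrane exporter and importer. It had 18.2 FPKM under H2O2, 118 FPKM under ASA and 55.1 FPKM in the control of the overexpression line. The antisense line gave 56.8 FPKM in the library labelled H2O2, 9.70 FPKM in that labelled ASA and 40.8 FPKM in the control. Wild type had 15.4 FPKM under H2O2, 100.3 FPKM under ASA and 50.2 FPKM in the control. The H2O2 library was thus the lowest of the 3 in the overexpression line and in wild type, and the library labelled ASA was the lowest in the antisense line. On FPKM, the H2O2 level was 6.46-fold below the ASA level in the overexpression line (exact 95% interval 6.13 to 6.82). In the antisense line the library labelled H2O2 was 5.86-fold above that labelled ASA (5.44 to 6.32). In wild type H2O2 was 6.53-fold below ASA (6.16 to 6.93). These and the other intervals for a pair of libraries cover counting error only, and no replicate stands behind them.

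The neighbouring identifier POPTR_0001s14650 followed the same course at a lower level. It had 11.7, 60.1 and 32.5 FPKM under H2O2, ASA and control in the overexpression line, 33.2, 5.18 and 24.8 FPKM in the antisense line as labelled, and 9.50, 56.4 and 27.9 FPKM in wild type. Its level was 0.510 to 0.643 of that of POPTR_0001s14660 in every library (Pearson r = 0.997 over the 9 libraries), and any reads that such neighbours share cannot be assigned from the deposited values. POPTR_0003s18140, a further PDR gene, had 6.03, 95.9 and 38.8 FPKM in the overexpression line, 44.1, 8.92 and 51.0 FPKM in the antisense line as labelled, and 15.0, 65.6 and 61.3 FPKM in wild type, again under H2O2, ASA and control. Its H2O2 level lay 15.9-fold below its ASA level in the overexpression line (14.5 to 17.5) and 4.37-fold below it in wild type (4.10 to 4.66). POPTR_0001s19030 had 18.5, 39.7 and 35.1 FPKM in the overexpression line, 53.0, 19.6 and 49.0 FPKM in the antisense line as labelled, and 26.9, 80.5 and 60.1 FPKM in wild type. Its H2O2 library was the lowest in the overexpression line and in wild type, and its ASA-labelled library the lowest in the antisense line.

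**Figure D2:**
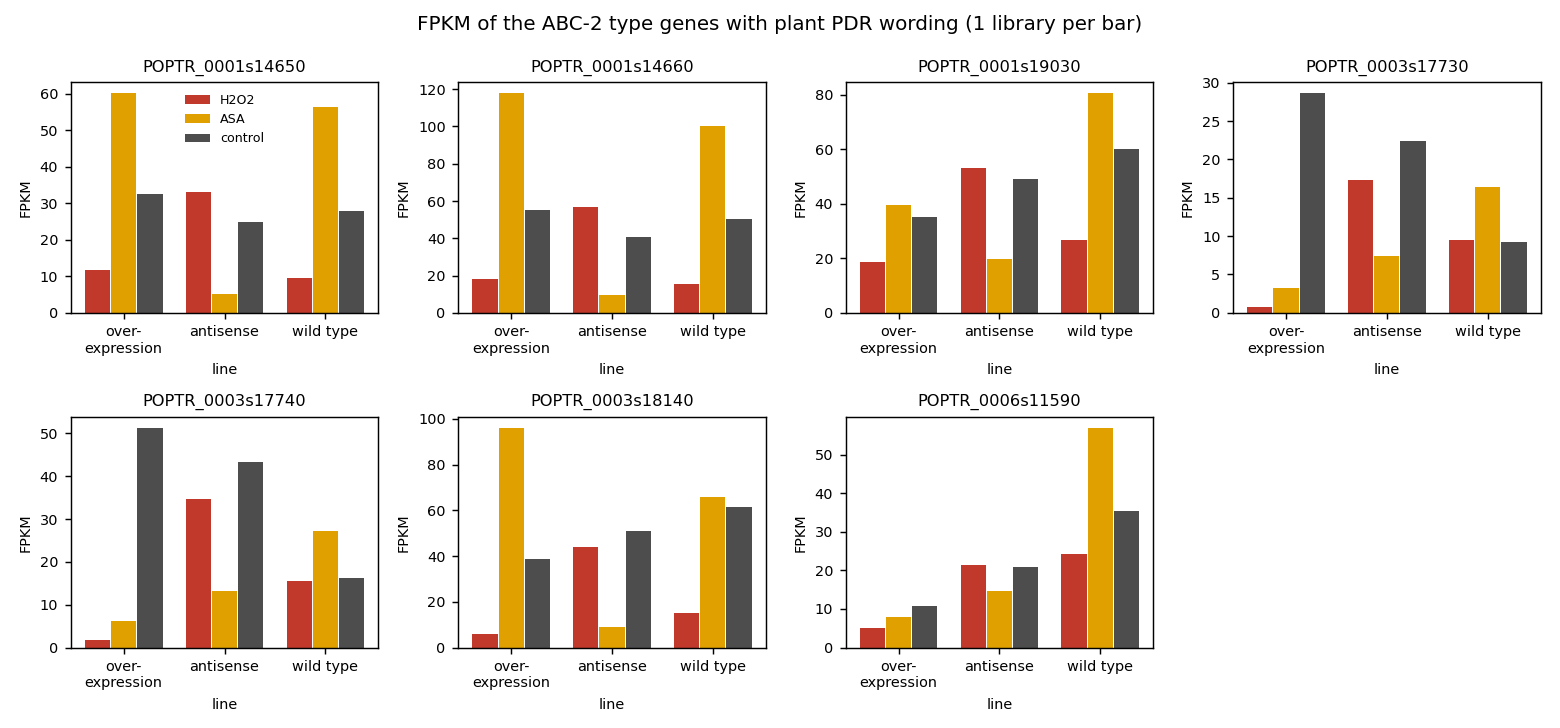
FPKM of the 7 ABC-2 type genes with PDR wording, 1 bar per library, grouped by line and with H2O2, ASA and control in that order. For POPTR_0001s14660 the H2O2 bars of overexpression (18.2) and wild type (15.4) are the low ones, and in antisense the ASA bar is (9.70).

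The 3 remaining PDR genes also had H2O2 below ASA in the overexpression line and wild type, and the reverse in the antisense line as labelled. They differed from the PDR genes above in how the lines and their controls stood to each other. POPTR_0003s17740 had 1.79 FPKM under H2O2, 6.22 FPKM under ASA and 51.3 FPKM in the control of the overexpression line. It had 34.7, 13.2 and 43.4 FPKM under the same conditions in the antisense line as labelled, and 15.5, 27.3 and 16.2 FPKM in wild type. In the overexpression line it was 28.7-fold lower under H2O2 (24.5 to 33.8) and 8.25-fold lower under ASA (7.53 to 9.03) than in the control, although that control was the highest of all 9 libraries. Its neighbour by identifier, POPTR_0003s17730, had 0.794, 3.29 and 28.6 FPKM in the overexpression line, 17.3, 7.37 and 22.4 FPKM in the antisense line as labelled, and 9.50, 16.4 and 9.17 FPKM in wild type, and the pair correlated at r = 0.998. POPTR_0006s11590 had 5.17, 7.85 and 10.7 FPKM under H2O2, ASA and control in the overexpression line, 21.5, 14.7 and 20.9 FPKM in the antisense line as labelled, and 24.3, 56.9 and 35.3 FPKM in wild type. The overexpression libraries of this gene were all below the antisense libraries, and the antisense libraries were all below those of wild type.

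The 2 ABC-2 type genes without PDR wording ran the other way. POPTR_0015s05680 had 41.2 FPKM under H2O2, 23.3 FPKM under ASA and 11.1 FPKM in the control of the overexpression line. It had 20.0, 63.0 and 13.3 FPKM in the antisense line as labelled, and 28.4, 8.19 and 7.83 FPKM in wild type. The control was the lowest library in each line. The H2O2 level was 3.70-fold above control in the overexpression line (3.31 to 4.16). In the antisense line the library labelled ASA was 4.74-fold above control (4.26 to 5.30). In wild type H2O2 was 3.63-fold above control (3.16 to 4.18). POPTR_0005s06530 had 27.8, 16.0 and 26.4 FPKM under H2O2, ASA and control in the overexpression line, 28.7, 39.9 and 25.5 FPKM in the antisense line as labelled, and 23.3, 13.3 and 16.5 FPKM in wild type. For this gene H2O2 exceeded ASA in the overexpression line and wild type, and the labelled order was turned round in the antisense line.

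Within the type 1 class, POPTR_0014s10880 and POPTR_0228s00200 were high in the overexpression control and low in both treated overexpression libraries. POPTR_0014s10880 had 5.77 FPKM under H2O2, 4.36 FPKM under ASA and 104 FPKM in the control of the overexpression line. It had 58.5, 45.6 and 77.5 FPKM in the antisense line as labelled, and 46.8, 55.5 and 21.5 FPKM in wild type. The overexpression control was the highest of the 9 libraries and the treated overexpression libraries were the lowest, whereas in wild type the control was the lowest. In the overexpression line the level was 18.0-fold below control under H2O2 (16.4 to 19.8) and 23.8-fold below it under ASA (21.3 to 26.6). In wild type it was 2.17-fold above control under H2O2 (2.05 to 2.31) and 2.58-fold above it under ASA (2.44 to 2.73).

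POPTR_0228s00200 had 1.74, 1.86 and 33.0 FPKM under H2O2, ASA and control in the overexpression line, 19.9, 14.5 and 24.8 FPKM in the antisense line as labelled, and 15.0, 19.0 and 7.46 FPKM in wild type. The transcript Novel00224, whose deposited description is a multidrug resistant ABC transporter family protein matched to POPTR_0014s10880, had 1.28, 2.36 and 56.9 FPKM in the overexpression line, 30.3, 23.0 and 39.5 FPKM in the antisense line as labelled, and 23.6, 27.8 and 11.3 FPKM in wild type. The 3 profiles were nearly the same in shape: POPTR_0014s10880 correlated with POPTR_0228s00200 at r = 0.997 and with Novel00224 at r = 0.989 over the 9 libraries. If these are near-identical copies, the deposited values cannot say how reads were divided among them, so the 3 are counted as members but are not independent observations.

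POPTR_0001s37340 was the type 1 gene with the highest mean, 76.4 FPKM. It had 11.8, 10.8 and 87.1 FPKM under H2O2, ASA and control in the overexpression line, 96.3, 102 and 137 FPKM in the antisense line as labelled, and 95.3, 81.9 and 65.8 FPKM in wild type. The treated overexpression libraries were far below the other 7. POPTR_0002s18860 had 16.2, 13.0 and 39.2 FPKM in the overexpression line, 26.8, 32.4 and 39.5 FPKM in the antisense line as labelled, and 33.5, 27.2 and 19.2 FPKM in wild type. This gene also had the smallest listed line difference of the 37, a log2 fold of -1.03 between overexpression ASA and wild type ASA in the authors' deposited table; the smallest absolute log2 fold in the authors' deposited table was 1.0 over all genes, and genes outside it carry no description, so values of transporters just outside the limit cannot be given. POPTR_0017s11030 stood alone, with 22.5, 104 and 17.9 FPKM in the overexpression line, 15.4, 11.2 and 11.7 FPKM in the antisense line as labelled, and 11.3, 14.1 and 14.7 FPKM in wild type. Its overexpression ASA library was 5.81-fold above the overexpression control (5.49 to 6.17), and the next highest library was overexpression H2O2.

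**Figure D3:**
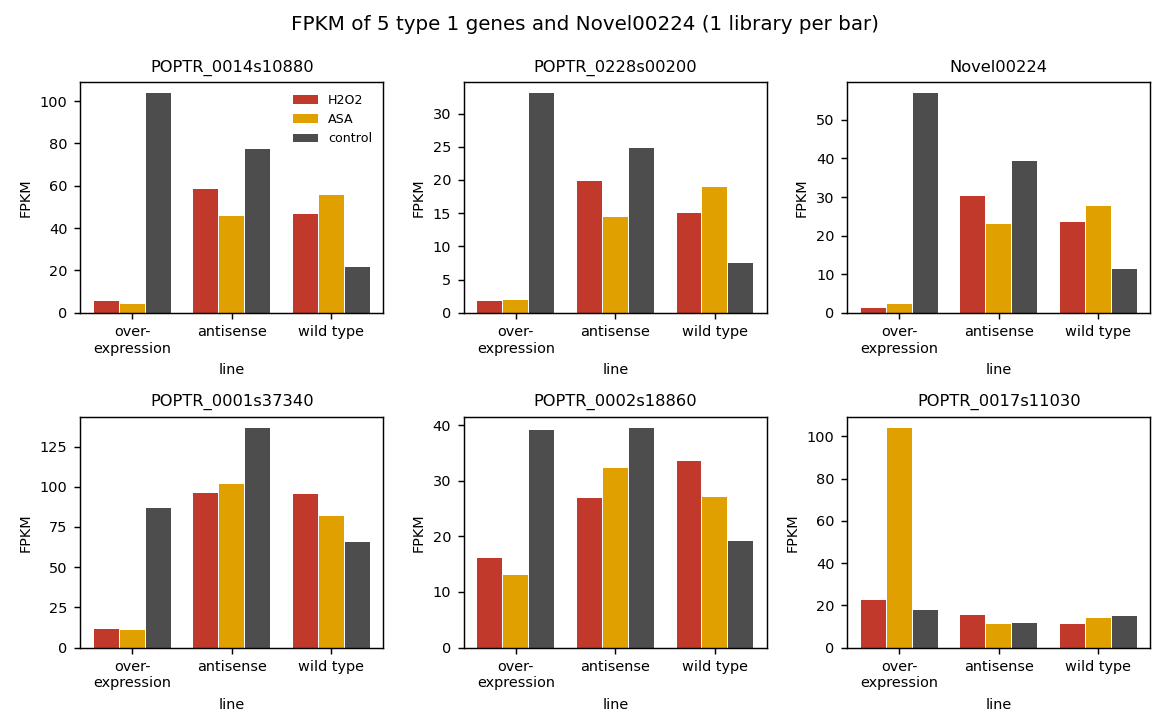
FPKM of 5 type 1 genes and Novel00224, 1 bar per library, grouped by line and with H2O2, ASA and control in that order. In the overexpression line POPTR_0014s10880 stands at 5.77, 4.36 and 104 FPKM, and POPTR_0017s11030 at 22.5, 104 and 17.9 FPKM.

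Of the other 6 type 1 genes, POPTR_0012s01210, POPTR_0015s06010, POPTR_1557s00200 and POPTR_0002s18850 shared the PDR order. The H2O2 library was the lowest in the overexpression line and wild type, and the ASA-labelled library the lowest in the antisense line. For POPTR_0012s01210, POPTR_0015s06010 and POPTR_1557s00200, H2O2 lay below ASA by 3.86-fold, 2.35-fold and 4.02-fold in the overexpression line. In wild type it did so by 2.27-fold, 2.45-fold and 2.24-fold. POPTR_0002s18850 had 28.2, 34.7 and 37.9 FPKM under H2O2, ASA and control in the overexpression line, 60.9, 27.2 and 49.5 FPKM in the antisense line as labelled, and 37.7, 89.9 and 42.2 FPKM in wild type. POPTR_0006s12590 and POPTR_0014s17830 had their highest values, 33.8 and 32.5 FPKM, in the library labelled antisense ASA.

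The class with other ABC wording held 6 genes described as ABCA, a subfamily known for lipid transport in animals, and included the most abundant transporter of the set. POPTR_0012s07160 had 112, 32.5 and 83.6 FPKM under H2O2, ASA and control in the overexpression line, 108, 77.4 and 121 FPKM in the antisense line as labelled, and 113, 148 and 114 FPKM in wild type. Its overexpression ASA library was the lowest of the 9, at 3.45-fold below overexpression H2O2 (3.26 to 3.64). The neighbour by identifier, POPTR_0012s07150, had 54.6, 22.7 and 53.8 FPKM in the overexpression line, 57.8, 35.1 and 66.5 FPKM in the antisense line as labelled, and 48.9, 77.9 and 74.6 FPKM in wild type (r = 0.928 with POPTR_0012s07160). The ASA libraries were thus the lowest of each transgenic line and the highest in wild type for both genes. POPTR_0006s04780 had 9.52, 10.8 and 27.1 FPKM in the overexpression line, and POPTR_0006s04790 had 7.59, 10.2 and 18.9 FPKM there, both with the control highest. The 6 antisense and wild type libraries of these ABCA genes ran from 14.8 to 32.7 FPKM and from 12.6 to 19.4 FPKM. POPTR_0015s07470 and POPTR_0015s07480 kept within 10.7 to 25.6 FPKM and 13.9 to 37.6 FPKM over the 9 libraries, lowest in the library labelled antisense ASA and highest in wild type ASA.

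The 2 genes described only by the nucleotide-binding part of an ABC transporter differed from these. POPTR_0010s23210 had 45.3, 24.0 and 13.6 FPKM under H2O2, ASA and control in the overexpression line, 14.8, 10.2 and 17.9 FPKM in the antisense line as labelled, and 12.2, 18.2 and 21.7 FPKM in wild type. Both treated overexpression libraries lay above the other 7. POPTR_0018s13190 had 45.2, 47.4 and 28.5 FPKM in the overexpression line, 39.5, 43.7 and 52.0 FPKM in the antisense line as labelled, and 77.1, 52.2 and 119 FPKM in wild type. The wild type libraries were the 3 highest, the lowest of them by a margin of less than 1 FPKM over the antisense control.

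Among the 8 MATE genes, POPTR_0004s09390 and POPTR_0229s00240 separated the overexpression line from the rest. POPTR_0229s00240 had 27.1, 23.7 and 22.7 FPKM under H2O2, ASA and control in the overexpression line, 6.55, 6.68 and 8.02 FPKM in the antisense line as labelled, and 5.49, 3.70 and 2.89 FPKM in wild type. POPTR_0004s09390 had 24.4, 20.9 and 18.2 FPKM in the overexpression line, 5.12, 6.38 and 6.05 FPKM in the antisense line as labelled, and 5.38, 3.69 and 2.47 FPKM in wild type. For both genes all 3 overexpression libraries were above the other 6. The pair correlated at r = 0.993 and had similar levels, so how reads were divided between possible copies is unknown here as well. POPTR_0013s06650 had 16.6, 21.9 and 24.5 FPKM in the overexpression line, 16.8, 16.8 and 19.1 FPKM in the antisense line as labelled, and 10.1, 7.20 and 6.98 FPKM in wild type, with wild type the lowest line throughout.

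POPTR_0009s06590 was the opposite case among the MATE genes. It had 0.546, 0.330 and 4.54 FPKM under H2O2, ASA and control in the overexpression line, 11.3, 13.7 and 22.7 FPKM in the antisense line as labelled, and 10.1, 9.15 and 17.5 FPKM in wild type. The 3 overexpression libraries were the lowest of the 9, and within every line the control was the highest library. Relative to control the level was 8.31-fold lower under H2O2 (5.15 to 14.2) and 13.8-fold lower under ASA (7.48 to 28.1) in the overexpression line, with only 11 reads in the ASA library.

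**Figure D4:**
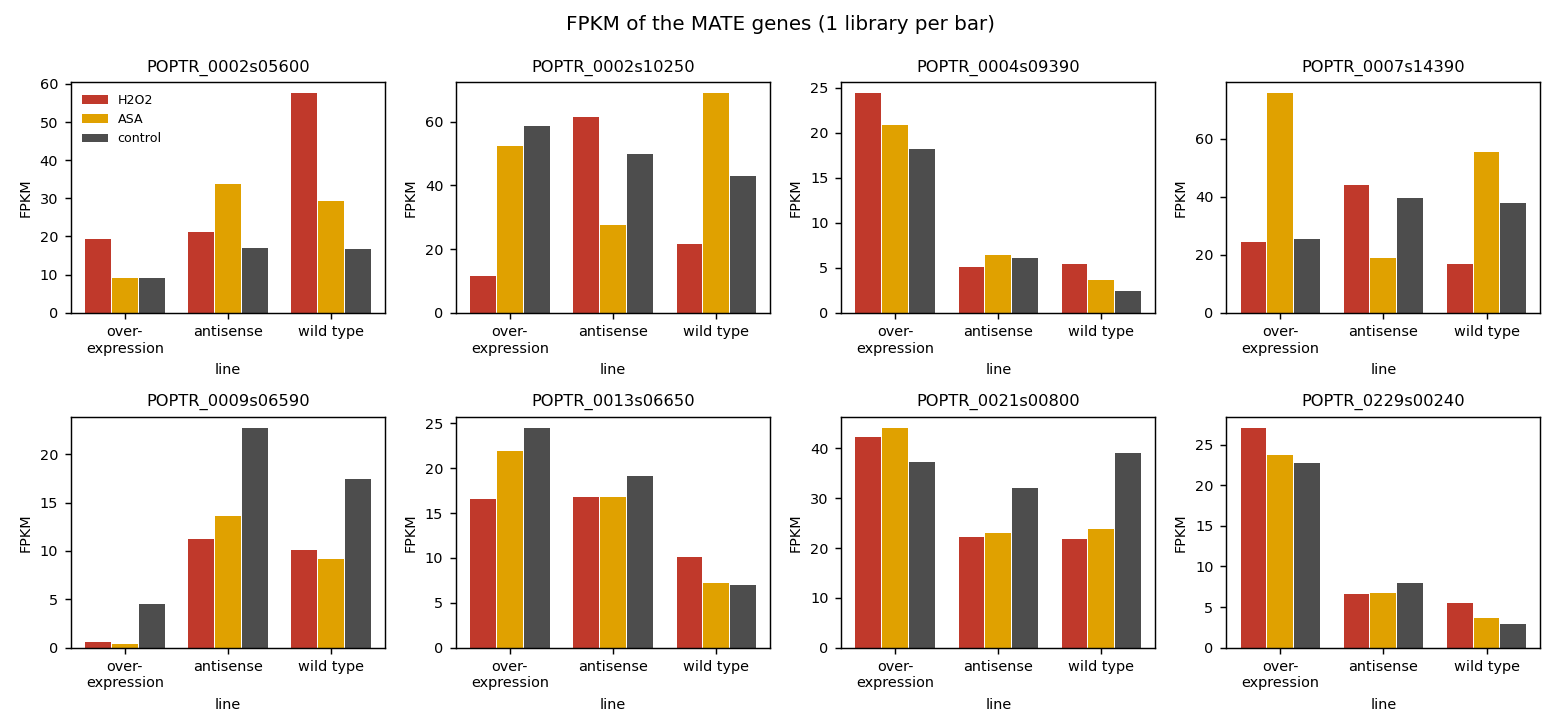
FPKM of the 8 MATE genes, 1 bar per library, grouped by line and with H2O2, ASA and control in that order. The overexpression bars of POPTR_0229s00240 (22.7 to 27.1) are above its other bars (2.89 to 8.02), and those of POPTR_0009s06590 (0.330 to 4.54) are below its other bars (9.15 to 22.7).

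The remaining 4 MATE genes varied more with treatment. POPTR_0002s10250 had 11.4, 52.6 and 58.7 FPKM under H2O2, ASA and control in the overexpression line, 61.6, 27.5 and 49.9 FPKM in the antisense line as labelled, and 21.8, 69.0 and 42.9 FPKM in wild type. POPTR_0007s14390 had 24.5, 75.8 and 25.4 FPKM in the overexpression line, 44.0, 19.1 and 39.7 FPKM in the antisense line as labelled, and 16.9, 55.4 and 37.8 FPKM in wild type. Both genes were thus lower under H2O2 than under ASA in the overexpression line and wild type, and the other way in the antisense line as labelled. POPTR_0002s05600 had 19.4, 9.18 and 9.03 FPKM in the overexpression line, 21.3, 33.7 and 17.1 FPKM in the antisense line as labelled, and 57.5, 29.4 and 16.7 FPKM in wild type; its control was the lowest library in each line. POPTR_0021s00800 had the narrowest range of the 37 genes (2.03-fold), with 42.4, 44.1 and 37.2 FPKM in the overexpression line, 22.2, 23.1 and 32.03 FPKM in the antisense line as labelled, and 21.8, 23.9 and 39.0 FPKM in wild type.

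The selection compared lines and not treatments, but 4 of its 6 comparisons were between treated libraries, so treatment differences of these genes are not independent of it and described genes are the closer background. Treatment differences were fitted with limma over all genes, with line and treatment as factors. In this fit the 3 lines stand in for replicates, and a difference passes only if it is large against the scatter between lines. With Benjamini-Hochberg adjustment, 0 of the 37 genes passed for H2O2 against control (background 0.00428% of 23350 genes), 0 for ASA against control (background 0.0%) and 0 for H2O2 against ASA (background 0.0%). At an unadjusted p below 0.05 limma gave 3, 1 and 0 of the 37, against 6.57%, 5.67% and 0.360% of all genes and 10.96%, 9.14% and 0.336% of described genes, and voom on the recovered reads also made 0 adjusted calls in each. The 3 genes below that level for H2O2 were POPTR_0009s06590, with a log2(FPKM + 1) difference of -1.17 ± 0.29 (SE; limma adjusted p = 0.554), POPTR_0002s05600 at 1.02 ± 0.35 (limma adjusted p = 0.695) and POPTR_0015s05680 at 1.36 ± 0.54 (limma adjusted p = 0.731). For ASA it was POPTR_0009s06590 again, at -1.21 ± 0.29 (limma adjusted p = 0.694). The direction of each of these differences was the same in all 3 lines.

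The H2O2 and ASA contrasts share the control libraries, so their values stand side by side only. For H2O2 against control the median log2 difference was -0.82 over the 9 ABC-2 type genes (7 lower), -0.35 over the 11 type 1 genes (10 lower), -0.19 over the 9 other ABC genes (7 lower) and -0.21 over the 8 MATE genes (5 lower), beside -0.01 over all genes tested and -0.15 over described genes. Over all 37, 78.4% were lower, beside 52.2% of all genes and 61.4% of described genes. Without both treated overexpression libraries, a setting chosen after seeing the data, 59.5% were lower, beside 43.9% of all genes and 55.3% of described genes. Over left-out single libraries, from 21 (without the overexpression control) to 29 of the 37 were lower, beside 29 in the fit of all 9 libraries. The share lower thus depended on the overexpression libraries. For ASA against control the medians were -0.12, -0.15, -0.24 and -0.03, beside -0.05 over all genes and -0.10 over described genes. Leaving out single libraries moved the ASA medians across 0 for the ABC-2 type class (-0.65 to 0.33), the type 1 class (-0.57 to 0.08) and the MATE class (-0.18 to 0.11). The 7 PDR genes were all on the lower side for H2O2 against control (median -0.91) and for H2O2 against ASA (median -0.41), none of them past the threshold.

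These values moved without the 2 treated antisense libraries, an alternative chosen after seeing the data. The PDR median became -1.60 for H2O2 against control and -1.30 for H2O2 against ASA, with all 7 genes lower in both. For ASA against control the PDR median became 0.29, against -0.23 in the fit of all 9 libraries, with 5 of 7 genes higher. The class medians for ASA against control then stood at 0.29 (ABC-2 type, 6 of 9 higher), -0.52 (type 1), -0.26 (other ABC) and 0.21 (MATE), beside -0.11 over all genes. For H2O2 against control they stood at -1.43, -0.67, -0.29 and -0.17 in the same order of classes, and for H2O2 against ASA at -1.08, -0.19, 0.07 and 0.10. The largest single difference for H2O2 against ASA was then that of POPTR_0003s18140, at -2.92 ± 0.43 (limma adjusted p = 0.151), and POPTR_0001s14660 stood at -2.63 ± 0.18 (limma adjusted p = 0.114). Still 0 of the 37 genes passed in any treatment contrast, with 12, 7 and 13 of them at an unadjusted p below 0.05 for H2O2 against control, ASA against control and H2O2 against ASA, which is 32.4%, 18.9% and 35.1% of them. These shares lay near those of described genes (30.2%, 17.6% and 32.1%), while over all genes they were 13.6%, 8.84% and 14.0%. Without both treated overexpression libraries, also 0 passed in each contrast.

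Within single lines, a pair of libraries was called apart if log2(FPKM + 1) differed by 2-fold or more and the higher library held 1 FPKM or more. Between overexpression H2O2 and its control, 3 transporter genes were higher (background 5.65% of all genes, or 13.7% of genes with a description) and 14 were lower (background 9.52%, or 26.4% of genes with a description). Between overexpression ASA and its control, 7 were higher (4.87%; 14.9% of described genes) and 12 were lower (8.85%; 20.9% of described genes). In the antisense line, the library labelled H2O2 differed from control at 0 genes in either direction (1.14% higher and 1.22% lower over all genes; 3.11% and 3.95% of described genes), and that labelled ASA gave 1 higher (3.12%; 6.95% of described genes) and 7 lower (4.93%; 22.3% of described genes). In wild type, H2O2 against control gave 4 higher (3.46%; 6.93% of described genes) and 6 lower (3.21%; 14.4% of described genes), and ASA against control gave 4 higher (2.75%; 8.15%) and 1 lower (1.8%; 5.38%). The overexpression line, whose treated libraries stand apart over all genes, thus had the highest count of the 3 lines for each agent.

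Combining libraries, 9 transporter genes were at least 2-fold lower in both treated overexpression libraries than in the overexpression control, beside 4.97% of all genes and 15.1% of described genes. They were the PDR pair POPTR_0003s17730 and POPTR_0003s17740, the type 1 genes POPTR_0014s10880, POPTR_0228s00200, POPTR_0001s37340 and POPTR_0002s18860, Novel00224, the ABCA gene POPTR_0006s04780 and the MATE gene POPTR_0009s06590. The PDR pair had nearly the same profile, as did POPTR_0014s10880, POPTR_0228s00200 and Novel00224. The 9 are therefore not independent observations, and their number overstates the difference from the background. The 1 laccase gene among the marker wordings, a mark of lignifying cells, had 7.06 FPKM under H2O2, 7.08 FPKM under ASA and 25.7 FPKM in the control of the overexpression line. It had 51.0, 18.0 and 71.6 FPKM in the antisense line as labelled, and 14.3, 49.3 and 34.1 FPKM in wild type. The other marker wordings did not fall in both treated overexpression libraries. Under H2O2, ASA and control, cellulose synthase genes summed to 324, 446 and 434 FPKM there. Chlorophyll-binding or photosystem genes summed to 6.70, 20.4 and 10.9 FPKM, and the 17 seed storage or cupin genes to 6431, 8785 and 4297 FPKM. The part of these markers in the differences was not tested. Of the transporter genes, only POPTR_0015s05680 was at least 2-fold higher in both treated overexpression libraries than in their control (2.37% of all genes, 7.96% of described genes). The same reduction in both treated libraries was met by 0 of the 37 in the antisense line (0.594% of all genes, 2.05% of described genes). It was met by 0 in wild type (0.487% and 1.61%). At such low shares a count of 0 of 37 says little. Whether the treatment differences of the lines differ could not be tested, with 1 library per condition.

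For H2O2 against ASA, 3 transporter genes were higher (2.77% of all genes; 6.11% of described genes) and 12 lower (4.53%; 16.1%) in the overexpression line. In the antisense line as labelled 11 were higher (5.37%; 25.3%) and 1 lower (2.05%; 6.05%), and in wild type 1 was higher (2.68%; 7.54%) and 12 lower (4.99%; 23.5%). In all, 9 transporter genes were at least 2-fold lower under H2O2 than under ASA in both the overexpression line and wild type, beside 1.98% of all genes and 11.2% of described genes, and 0 were higher (0.812%; 2.89%). These were 4 PDR genes (POPTR_0001s14650, POPTR_0001s14660, POPTR_0001s19030 and POPTR_0003s18140), the type 1 genes POPTR_0012s01210, POPTR_0015s06010 and POPTR_1557s00200, and the MATE genes POPTR_0002s10250 and POPTR_0007s14390. POPTR_0001s14650 and POPTR_0001s14660 had nearly the same profile, so these 9 genes are not independent observations. All but POPTR_0015s06010 and POPTR_1557s00200, 7 genes in all, were at least 2-fold higher in the library labelled antisense H2O2 than in that labelled antisense ASA (1.6% of all genes; 9.88% of described genes). Over the 37 genes the H2O2 minus ASA difference of the antisense line correlated with that of wild type at -0.958 and that of the overexpression line with wild type at 0.716, as over all genes in sign.

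**Figure D5:**
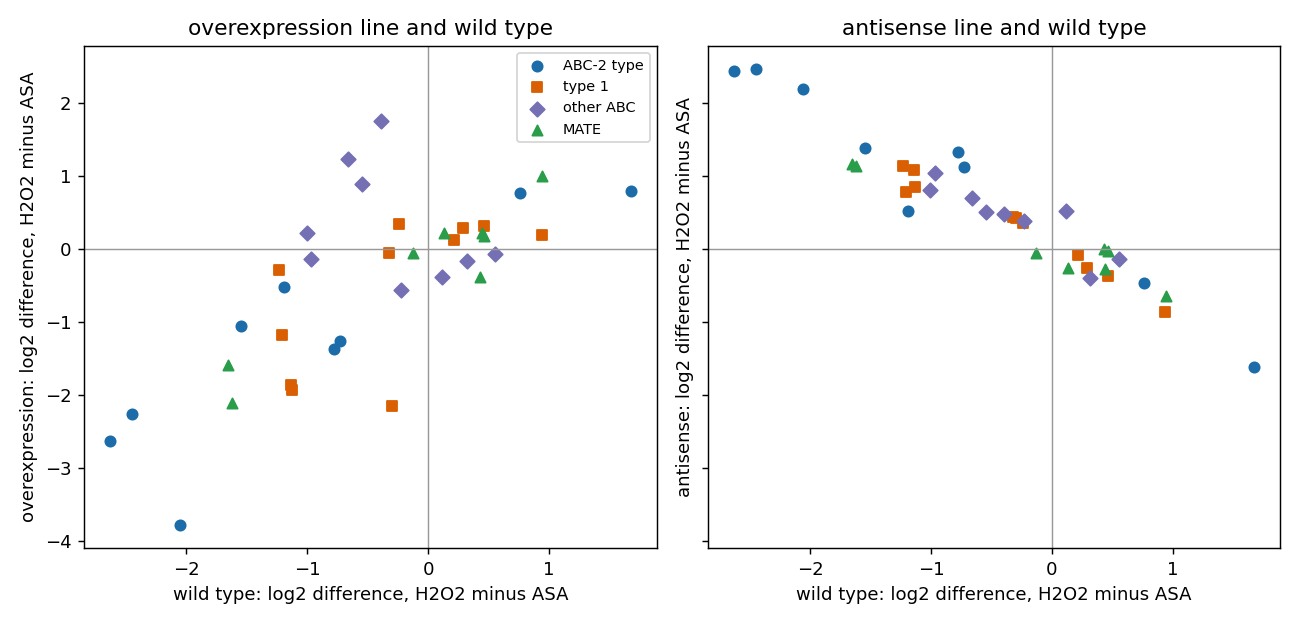
Difference of log2(FPKM + 1), H2O2 minus ASA, of the 37 transporter genes in the antisense line as labelled and in the overexpression line against that in wild type; each point is 1 gene and a pair of libraries per axis. Antisense values run opposite to wild type (r = -0.958 over the genes) and overexpression values run with it (r = 0.716).

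Between lines, the values below describe the contrast that chose the genes, and nothing is read from them. At 2-fold or more, 8 transporter genes were higher (6.17% of all genes) and 3 lower (4.77%) in the overexpression control than in the wild type control, 3 higher (4.33%) and 14 lower (8.28%) under H2O2, and 5 higher (5.46%) and 14 lower (8.46%) under ASA. In the antisense line 10 were higher (2.39%) and 1 lower (2.15%) than wild type in the control, 8 higher (4.58%) and 1 lower (3.78%) in the libraries labelled H2O2, and 5 higher (6.74%) and 14 lower (8.06%) in those labelled ASA. Of the 37 genes, 13 were listed in 1 comparison of the authors' deposited table, 13 in 2, 6 in 3, 3 in 4, 1 in 5 and 1 in all 6. Over the 3 treatments, the log2(FPKM + 1) level in the overexpression line minus that in wild type was 2.37 for POPTR_0229s00240, 2.23 for POPTR_0004s09390 and 1.27 for POPTR_0013s06650, and -2.51 for POPTR_0009s06590 and -2.12 for POPTR_0006s11590. For antisense minus wild type the ends of the range were 1.05 for POPTR_0013s06650 and -0.93 for POPTR_0006s11590. At least 2-fold in the same direction in all 3 treatments, overexpression exceeded wild type for 2 genes (0.666% of all genes; 2.82% of described genes) and lay below it for 2 (1.42%; 8.2%). In the additive fit 5 genes lay past the threshold for overexpression against wild type (2.86% of all genes), 3 higher (1.05%) and 2 lower (1.81%), and 3 for antisense against overexpression (0.364%), 1 higher (0.146%) and 2 lower (0.218%). For antisense against wild type limma gave 0 (0.0814%), with 6 at an unadjusted p below 0.05, and voom gave 0. At 2-fold, 5 were higher in the overexpression control and lower in both treated overexpression libraries than in the matching wild type libraries (0.396%; 1.65%): Novel00224, POPTR_0003s17730, POPTR_0003s17740, POPTR_0014s10880 and POPTR_0228s00200.

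Genes with consecutive identifiers had similar profiles over the 9 libraries in 5 of 6 pairs, as a description. Besides the 2 PDR pairs and the ABCA pair given above, POPTR_0015s07470 and POPTR_0015s07480 correlated at r = 0.943 and POPTR_0006s04780 and POPTR_0006s04790 at r = 0.824, whereas the type 1 neighbours POPTR_0002s18850 and POPTR_0002s18860 gave r = 0.221. The median over the 656 pairs of transporter genes outside these and the possible copies named above was 0.0635, with a range of -0.933 to 0.973. POPTR_0006s04780 and POPTR_0006s04790 were each more like a gene with an unlinked identifier than like each other. These were POPTR_0002s18860 (r = 0.914) and POPTR_0003s17730 (r = 0.954). Across unlinked identifiers, the profile most like that of POPTR_0001s37340 was POPTR_0014s10880 (r = 0.947), and the profile most like that of POPTR_0003s18140 was the type 1 gene POPTR_0012s01210 (r = 0.948).

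Glutathione S-transferases and UDP-glycosyltransferases attach the groups that some of these pumps recognise, and both were described by the same wording search. Of 22 glutathione S-transferase genes, 20 were lower and 2 higher for H2O2 against control (median -0.68), and 18 were lower and 4 higher for ASA against control (median -0.73). Of 35 UDP-glycosyltransferase genes, 25 were lower for H2O2 (median -0.37) and 21 for ASA (median -0.11). Among other carriers, 13 of 22 major facilitator genes and 15 of 19 P-type ATPase genes were lower for H2O2 (medians -0.38 and -0.30), while 7 of 10 oligopeptide transporter genes were higher (median 0.25). A gene can be in more than 1 of these lists. The highest H2O2 difference, 0.93, is the same value in the major facilitator and oligopeptide transporter lists, so they are not separate sets. The lower genes for H2O2 numbered 18 of 32 cytochrome P450, 4 of 6 sugar transporter, 5 of 9 amino acid transporter and 4 of 7 aquaporin genes. All these counts stand beside 52.2% of all genes and 61.4% of described genes lower for H2O2, and 57.5% and 58.3% lower for ASA; the lists consist of described genes. No gene of these 9 lists passed the limma threshold in a treatment contrast. The list counts and medians come from the fit of all libraries and are not given without the treated antisense libraries, whose labels may be wrong.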

How the data were processed

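The authors deposited FPKM values for 41624 genes in 9 libraries, and 6 tables that compare a transgenic line with wild type. Per the file headers, the comparison tables hold scaled read counts per library (a signal whose scale is not stated), log2 fold changes, p-values or q-values and descriptions, with q-values up to 0.00498 in the listed genes. The submitters' processing notes name HTSeq 0.6.1, TopHat2 2.0.12, TopHat and Bowtie2 2.2.3. The role of each tool, the build and any use of strand were not given in the sources used here. No identifier matched the gene table at hand (0 matches), so no sequences or positions are given.

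All values of the 33158 genes above 0 came out as whole reads to within 0.0001 of a read (100%), though for 1546 genes with reads in 1 library this fixes no ratio. Many multipliers were tried per gene, so genes with reads in few libraries can also match by chance. The 100% is therefore no check for such genes. Recovered reads served for depth and exact 95% intervals.

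limma 3.58.1 in R 4.3.3 was fitted to log2(FPKM + 1), as an additive model of line and treatment with a trend on the mean (9 libraries), and Benjamini-Hochberg adjustment over the 23350 genes that averaged 1 FPKM or more (threshold 0.05). The pseudocount of 1 understates differences of low genes. The fit leaves 4 residual degrees of freedom and the moderation adds 3.31. The residual is scatter of treatment effects over lines, since nothing separates biological from technical spread with 1 library per condition. The fit was also run on simulated data with independent noise and planted changes that were the same in every line. Scatter of treatment effects over lines was not simulated, so that run cannot show how many real changes the fit misses.

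Named genes were the 6 largest differences in each direction for each treatment against control and each line against wild type, the 6 highest and the 3 lowest by mean; further genes named were chosen after their values were seen. The members and word lists were chosen with earlier results of these data known. Alternatives were pseudocounts of 0.1 and 5, no filter or a mean of at least 5 FPKM, median-centred libraries, voom on recovered reads, wild type and overexpression libraries alone, and leaving out libraries.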

Additional observations from a re-analysis of the deposited data

Results flagged for a closer look

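Differences between lines in a treatment effect are given here as the log2(FPKM + 1) effect in the first line minus that in the second. Each was picked out because the gene was at least 2-fold apart in opposite directions in the 2 lines. With 1 library per condition the difference was not tested, for any of them, and no explanation was weighed. The treated antisense libraries run opposite to wild type over all genes, so the antisense values follow their labels only.

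For H2O2 against ASA, antisense minus wild type was 4.92 for POPTR_0001s14650, 5.06 for POPTR_0001s14660, 2.94 for POPTR_0001s19030, 2.76 for POPTR_0002s10250, 2.37 for POPTR_0002s18850, 4.24 for POPTR_0003s18140, 2.82 for POPTR_0007s14390, 2.23 for POPTR_0012s01210 and -3.29 for POPTR_0015s05680. The positive values belong to genes whose H2O2 library was above the ASA library in antisense as labelled and below it in wild type, and POPTR_0015s05680 had the opposite signs. Antisense minus overexpression, for H2O2 against ASA, was 4.73 for POPTR_0001s14650, 5.06 for POPTR_0001s14660, 2.45 for POPTR_0001s19030, 3.24 for POPTR_0002s10250, 2.39 for POPTR_0003s17730, 2.70 for POPTR_0003s17740, 5.97 for POPTR_0003s18140, 2.76 for POPTR_0007s14390 and 2.96 for POPTR_0012s01210.

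For H2O2 against control, overexpression minus wild type was -5.67 for Novel00224 and -5.04 for POPTR_0014s10880. For ASA against control it was -5.34 for Novel00224, -5.62 for POPTR_0014s10880 and -4.81 for POPTR_0228s00200. These genes had nearly the same profile over the 9 libraries, lower than control in the overexpression line and higher than control in wild type. For ASA against control, antisense minus overexpression was -3.05 for POPTR_0001s14660, -3.68 for POPTR_0003s18140 and -2.56 for POPTR_0007s14390.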

How the results depend on the processing

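The count of 0 transporter genes past the limma threshold for each treatment contrast was 0 under every pseudocount, filter, scaling, voom and left-out library tried; with 4 residual degrees of freedom or fewer, these zeros say little about stability. Median-centring moved the median of all genes by at most 0.108 (log2), for antisense against overexpression, and by less than 0.1 elsewhere. Without both treated overexpression libraries (chosen after seeing the data), single values against control turned sign: for H2O2 Novel00224 stood at 0.32, POPTR_0014s10880 at 0.34 and POPTR_0010s23210 at -0.52, and for ASA POPTR_0014s10880 at 0.29, Novel00224 at 0.24, POPTR_0228s00200 at 0.25, POPTR_0017s11030 at -0.057 and POPTR_0007s14390 at -0.24. The cause was not tested. Leaving out each library in turn, the H2O2 differences ran from -2.54 to 0.21 for Novel00224, from -2.27 to 0.39 for POPTR_0014s10880 and from -0.37 to 0.67 for POPTR_0010s23210. The ASA differences ran from -2.42 to 0.24 for POPTR_0014s10880, from -2.41 to 0.34 for Novel00224, from -2.07 to 0.27 for POPTR_0228s00200, from -0.0049 to 1.27 for POPTR_0017s11030, from -0.068 to 1.02 for POPTR_1557s00200 and from -0.17 to 1.16 for POPTR_0007s14390; the sign changes came without the overexpression control or a treated overexpression library.

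For the line contrasts, which chose the genes, 5 transporter genes were past the threshold for overexpression against wild type in the 9-library fit (2.86% of all genes) and 3 for antisense against overexpression (0.364%). The first count ran from 1 to 9 over left-out libraries, with 9 without the overexpression control and 1 without overexpression H2O2 or wild type ASA, and was 0 without both treated overexpression libraries. The second ran from 0 to 10, with 10 without the overexpression control and 0 without any other library of either line, and was 1 with no filter, 0 without both treated antisense libraries and 0 without both treated overexpression libraries. Class medians over left-out libraries ran from -1.93 to -0.26 (ABC-2 type), -0.86 to 0.0013 (type 1), -0.33 to 0.10 (other ABC) and -0.29 to -0.026 (MATE) for H2O2 against control, the lowest of the first pair without antisense H2O2. For ASA against control they ran from -0.65 to 0.33, -0.57 to 0.08, -0.51 to -0.24 and -0.18 to 0.11 in the same order of classes, and for H2O2 against ASA from -0.98 to -0.01, -0.30 to 0.08, -0.06 to 0.40 and -0.09 to 0.13, so that all but 4 of these 12 treatment ranges include 0. For overexpression against wild type they ran from -0.85 to 0.32 (ABC-2 type), -0.74 to -0.17 (other ABC) and 0.027 to 0.67 (MATE), for antisense against wild type from 0.13 to 0.60 (MATE), and for antisense against overexpression from 0.084 to 0.45 (other ABC). Without both treated overexpression libraries, the overexpression against wild type medians were 0.014 (ABC-2 type) and 0.19 (type 1), and the antisense against overexpression median was 0.082 (other ABC). With a pseudocount of 0.1 the library labelled antisense H2O2 differed from the antisense control at 1 transporter gene in place of 0. The line term of the fit already compares treatments within lines. Pairing beyond that was not possible, because each condition has 1 library and no replicate numbers that could pair libraries.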
